A study of Mus musculus with 6 samples.

Results

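Members of the tumour necrosis factor (TNF) superfamily were followed in neonatal mouse dermal fibroblasts with and without stabilized β-catenin. The 10 genes were chosen by name from the table of all genes. They comprise the ligands Tnfsf11 and Tnfsf10 and the receptors Tnfrsf11b, Tnfrsf12a, Tnfrsf19, Tnfrsf21, Tnfrsf1a, Tnfrsf1b, Tnfrsf9 and Ngfr. All 10 are among the 41126 genes of the table, and 8 of them are among the 15462 genes with enough fragments to be tested.

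RNA was sequenced from 3 control and 3 gain-of-function (GOF) cultures of fibroblasts from ventral skin, of mixed CD1 and C57Bl6 strain and labelled as harvested at postnatal day 4. GOF cultures received Adenovirus-Cre and are labelled Ctnnb1 delta ex3/+, the allele that yields a form of β-catenin lacking the sites whose phosphorylation marks it for degradation. Control cultures received Adenovirus-GFP. The labels call them wild type (+/+), whereas in the paper they carry the same transgene, and the labels' treatment protocol lists Adenovirus-Cre at 366 to 500 MOI for 6 h for every culture. The virus differs between the groups together with β-catenin, and their effects cannot be told apart. The cultures came from 4 animals by their labels, and 2 animals contributed to each of the groups: animal 9852 gave Control replicate 0 and GOF replicate 2, and animal 9845 gave Control replicate 2 and GOF replicate 0. Cells went through passages before infection and were treated as whole populations, so fewer cells of a type and less RNA per cell cannot be told apart.

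TNF superfamily receptors are transmembrane or secreted proteins with cysteine-rich repeats that bind trimeric ligands. Some carry an intracellular death domain and can recruit caspases, others recruit TRAF adaptors and activate NF-kappaB, and decoy receptors bind ligand without signalling. In skin, members of the family take part in inflammation, in wound repair and, through the ectodysplasin branch, in the formation of hair follicles. Tnfrsf11b and Tnfrsf19 are known as genes that respond to Wnt signalling in some cell types.

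The libraries held 35980831 to 42834467 fragments. Axin2, a feedback inhibitor of Wnt signalling used as a check of the labels, was at 0.136 to 0.177 FPKM (fragments scaled for transcript length and library) in control and at 14.4 to 19.2 FPKM in GOF libraries. Ctnnb1 over its whole length had a log2 difference of -0.05 ± 0.15 (SE, edgeR, adjusted p = 0.844), and its exons were not analysed here. The fibroblast genes Col1a1, Col1a2, Dcn, Lum, Pdgfra, Thy1, Vim and Fn1 summed to 3324 to 4015 FPKM in control and 2544 to 3111 FPKM in GOF libraries, with 3 of them (Dcn, Fn1 and Col1a2) called lower. The 7 keratinocyte markers summed to at most 0.595 FPKM and the 7 T and B cell markers to at most 0.0861 FPKM in any library. Macrophage markers summed to 13.3 to 22.8 FPKM in control and 10.4 to 28.7 FPKM in GOF libraries. Lyz2 was the largest part in every library, at 8.25 to 16.9 FPKM in control and 4.22 to 17.3 FPKM in GOF libraries. Ptprc, Adgre1 and Itgam were each at most 0.12 FPKM in any library, and Cd68, Cd14 and Csf1r lay between. Endothelial markers summed to 3.29 to 4.14 FPKM in control and 3.01 to 4.74 FPKM in GOF libraries. In these lists Csf1r (log2 fold change 1.52) and Kdr (1.77) were called higher and Tek (-2.27) lower, named after their values were seen. The 6 skeletal muscle genes summed to 23.3 to 27.6 FPKM in control and 138 to 173 FPKM in GOF libraries, nearly all of it Acta1, an actin gene, while Myod1 was at no more than 0.0158 FPKM. The part of other cells in the values that follow was not tested.

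Of the 10 genes, 4 were called higher in GOF cultures and none lower. Called means a fold change over 2 together with an adjusted p under 0.05 in edgeR's quasi-likelihood test, with adjustment over all genes tested. Across all genes tested the same rule called 12.3% in either direction, 6.69% higher and 5.64% lower. At an adjusted p under 0.05 alone, at any fold, 21.2% of all genes passed, 11.1% higher and 10.2% lower, and among the members the same 4 passed. At an unadjusted p under 0.05, 4 members were higher and 2 lower (Tnfrsf1a and Tnfrsf1b). At least 21.2% of all genes pass that threshold too, and the exact share is not given here. DESeq2 called the same 4 genes higher and none lower. The shares of all genes called by DESeq2 or with the animal as a block are not given here. The genes called were Tnfrsf11b, Tnfrsf12a, Tnfrsf19 and Tnfrsf21, all receptors. Tnfsf11, Tnfrsf1a, Tnfrsf1b and Ngfr were tested and not called, and Tnfrsf9 and Tnfsf10 had too few fragments to be tested. The median log2 fold change of the 8 tested members was 0.52, beside -0.02 over all genes tested. FPKM of control and GOF libraries did not overlap for 4 of the 8, which is the case for 39.5% of all genes tested.

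**Figure D1:**
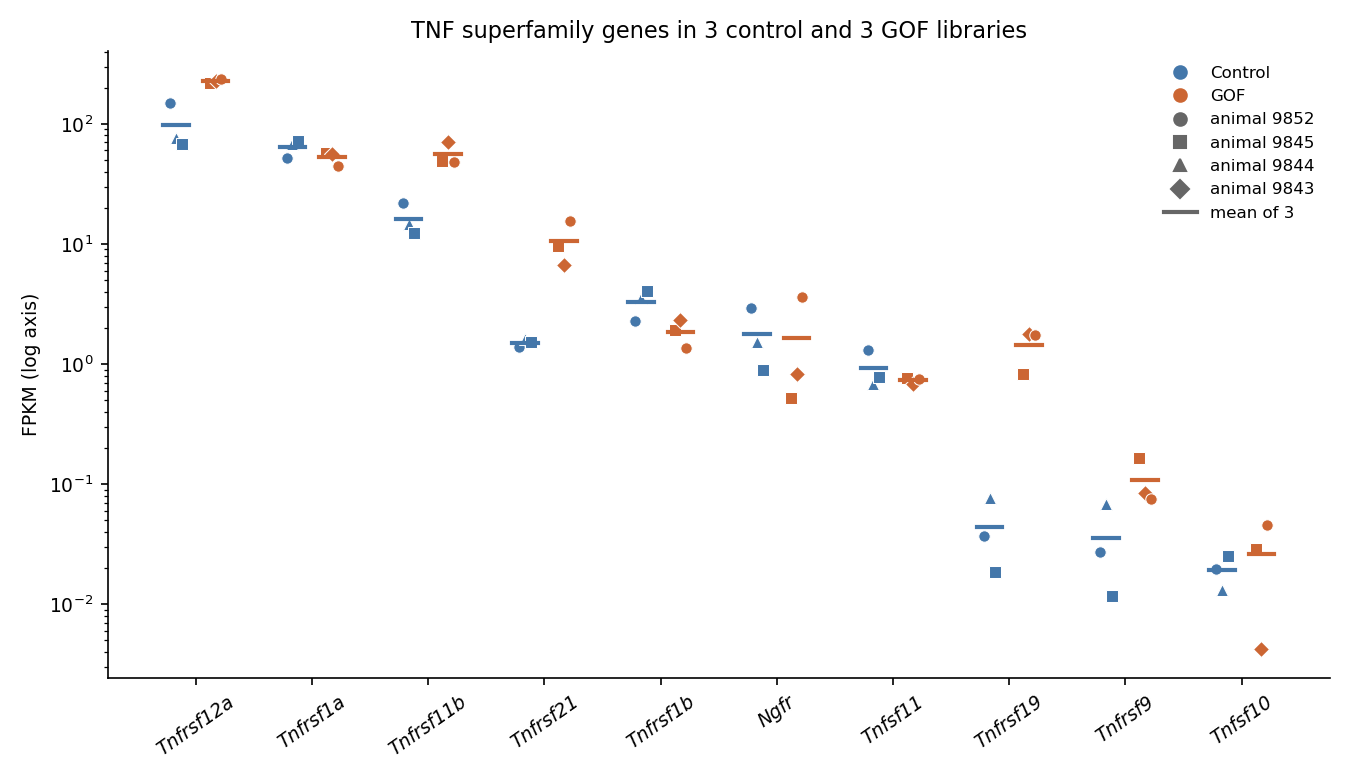
FPKM of each of the 10 genes (vertical log axis) in the 3 control (blue) and 3 GOF (orange) libraries, with 1 point per library, a symbol per animal and a line at the mean of 3. Tnfrsf12a, Tnfrsf11b, Tnfrsf21 and Tnfrsf19 have all GOF points above all control points, while the points of Ngfr in the groups overlap.

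Levels of the members spanned a wide range within a group. In control libraries Tnfrsf12a was highest with a mean of 97.6 FPKM, followed by Tnfrsf1a with 63.8 FPKM, and the ranges of these neighbours overlapped. Tnfrsf11b came next at 16.2 FPKM, apart from its neighbours on either side. Tnfrsf1b, Ngfr and Tnfrsf21 followed at 3.28, 1.79 and 1.51 FPKM, each overlapping with the next. Tnfsf11 was at 0.923 FPKM, and Tnfrsf19, Tnfrsf9 and Tnfsf10 were all under 0.08 FPKM in every control library. In GOF libraries Tnfrsf12a was again highest, at 227 FPKM and apart from the rest. Tnfrsf11b and Tnfrsf1a came next, at 56.0 and 52.5 FPKM with overlapping ranges. Tnfrsf21 followed at 10.6 FPKM, apart from its neighbours. Tnfrsf1b, Ngfr and Tnfrsf19 were at 1.86, 1.64 and 1.44 FPKM, each overlapping with the next, and Tnfsf11, Tnfrsf9 and Tnfsf10 were lowest at 0.734, 0.108 and 0.0263 FPKM without overlap.

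Tnfrsf11b encodes osteoprotegerin, a secreted decoy receptor that binds the ligand RANKL and thereby restrains osteoclast formation. It lies on chromosome 15 (chr15:54250619-54278484, minus strand, GRCm38). Its FPKM was 21.8, 14.7 and 12.2 in Control replicates 0, 1 and 2 and 49.0, 71.2 and 47.8 in GOF replicates 0, 1 and 2. The lowest GOF library thus stood above the highest control library. Mean FPKM went from 16.2 ± 4.98 to 56.0 ± 13.2 (SD, n = 3 each), a 3.45-fold rise of the mean. edgeR gave a log2 fold change of 1.79 ± 0.28 (SE, adjusted p = 0.00447), and Tnfrsf11b was called in all 15 alternatives run. Within animal 9852 the GOF culture was 2.19-fold higher and within animal 9845 it was 4.0-fold higher. Markers of osteoblasts, in which osteoprotegerin is best known (Bglap, Sp7, Ibsp and Dmp1), summed to 0.310 to 0.649 FPKM in control and 0.188 to 1.39 FPKM in GOF libraries.

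Tnfsf11 encodes RANKL, the ligand that osteoprotegerin captures and that signals through the receptor RANK. The gene lies at chr14:78277445-78308043 on the minus strand. It was detected at 1.31, 0.677 and 0.786 FPKM in control and 0.771, 0.688 and 0.744 FPKM in GOF libraries, from 65 to 113 fragments each. Control replicate 0 was the highest library, and the other 5 lay within a narrow band that mixed the groups. The log2 fold change of -0.33 had a 95% interval of -1.06 to 0.40 (adjusted p = 0.494 from edgeR), and without Control replicate 0 it was 0.03. The FPKM of Tnfrsf11b exceeded that of Tnfsf11 in every library, by 18.0 ± 3.25 times in control and 77.1 ± 22.9 times in GOF libraries (SD, n = 3 each). The ratio was 15.6 to 21.7 in control and 63.5 to 103 in GOF libraries, without overlap (two-sided p = 0.1 in an exact permutation test, which cannot go lower with 3 libraries a group).

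Tnfrsf12a encodes Fn14, a small receptor for the ligand TWEAK that is known to be induced by growth factors in fibroblasts. It had the highest mean FPKM of the family's receptors in each group, although Tnfrsf1a was above it in Control replicate 2. The gene spans 2024 bases at chr17:23675445-23677468 on the minus strand. Its FPKM was 148, 76.6 and 68.6 in Control replicates 0, 1 and 2 and 217, 229 and 235 in GOF replicates 0, 1 and 2. GOF libraries lay close together, while Control replicate 0 was 2.15 times the lowest control library. Means were 97.6 ± 43.5 and 227 ± 9.36 FPKM (SD, n = 3 each). The fit of edgeR put the log2 difference at 1.16 ± 0.29 (SE, adjusted p = 0.0283). The call was lost when any of Control replicate 1 or 2 or GOF replicate 0, 1 or 2 was left out (adjusted p = 0.0622 to 0.0988), whereas without Control replicate 0 the log2 fold change was 1.60 (adjusted p = 0.00118). The difference had the same direction within both animals, 1.59-fold in animal 9852 and 3.16-fold in animal 9845.

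Tnfrsf19, also called Troy, encodes a receptor without a death domain that is found in developing skin, hair follicles and the nervous system. In control libraries it was at 0.0370, 0.0762 and 0.0185 FPKM, from 7, 15 and 4 fragments. In GOF libraries it was at 0.819, 1.77 and 1.73 FPKM, from 172, 347 and 355 fragments. No GOF library came near the control values, and the ratio of mean FPKM was 32.8. The log2 fold change of 5.01 ± 0.51 (SE, edgeR, adjusted p = 8.72e-04) was the largest of the 8 members tested, and Tnfrsf19 was called in all 14 alternatives that tested it. It was 46.7-fold within animal 9852 and 44.2-fold within animal 9845 on the FPKM scale. Even in GOF cultures the gene remained a small part of the receptor transcripts, at 0.248% of the FPKM summed over 28 receptor genes. Tnfrsf19 lies at chr14:60963875-61046490 on the minus strand and overlaps the lincRNA gene Gm41168 on the opposite strand. Whether the authors' counting used the strand is not given in the sources used here.

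Tnfrsf21 encodes death receptor 6, which has a death domain and is known from neurons and immune cells. It lies at chr17:43016555-43089189 on the plus strand. The control libraries were tightly grouped at 1.38, 1.62 and 1.52 FPKM, and the GOF libraries spread from 6.72 in replicate 1 through 9.58 in replicate 0 to 15.5 in replicate 2. All GOF libraries were higher than all control libraries. Mean FPKM was 1.51 ± 0.119 in control and 10.6 ± 4.46 in GOF libraries (SD, n = 3 each), a ratio of 7.02. By edgeR, GOF exceeded control on the log2 scale by 2.78 ± 0.31 (SE, adjusted p = 0.00130), and the gene was called in all 15 alternatives. The rise was 11.2-fold within animal 9852 and 6.30-fold within animal 9845.

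Promoter sequence was looked up for the members in the RefSeq annotation of GRCm38.p6, as the 250 bases before each annotated start, and 9 of the 10 genes had an entry, with 11 windows. Tnfrsf11b had none. Both windows of Tnfrsf19 and those of Tnfrsf12a and Tnfrsf21 are shown because these genes were called higher in GOF cultures. They are written 5′ to 3′ on the strand of the gene. Windows of a gene are ordered by coordinate. For Tnfrsf19, on the minus strand, the first window is therefore that of the downstream start site. Capitals mark the motif of Tcf/Lef factors, the DNA-binding partners of β-catenin, searched as CTTTGAT or CTTTGAA on both strands. The windows are chr14:61037988-61038237 and chr14:61046856-61047105 (Tnfrsf19, minus strand), chr17:23677450-23677699 (Tnfrsf12a, minus strand) and chr17:43016305-43016554 (Tnfrsf21, plus strand).
Tnfrsf19, first start site: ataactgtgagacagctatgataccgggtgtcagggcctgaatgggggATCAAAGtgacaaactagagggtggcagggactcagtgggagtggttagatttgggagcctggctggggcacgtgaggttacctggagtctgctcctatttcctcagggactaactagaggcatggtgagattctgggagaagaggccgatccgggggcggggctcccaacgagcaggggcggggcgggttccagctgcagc
Tnfrsf19, other start site: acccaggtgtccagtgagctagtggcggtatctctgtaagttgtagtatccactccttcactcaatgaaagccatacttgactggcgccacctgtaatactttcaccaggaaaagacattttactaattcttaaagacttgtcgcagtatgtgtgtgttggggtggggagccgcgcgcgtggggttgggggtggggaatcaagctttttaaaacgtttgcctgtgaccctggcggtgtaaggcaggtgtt
Tnfrsf12a: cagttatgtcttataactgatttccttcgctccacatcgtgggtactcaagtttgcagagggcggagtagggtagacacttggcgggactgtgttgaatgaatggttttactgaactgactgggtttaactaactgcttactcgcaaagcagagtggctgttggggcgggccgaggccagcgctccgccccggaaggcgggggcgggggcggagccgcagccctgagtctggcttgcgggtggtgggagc
Tnfrsf21: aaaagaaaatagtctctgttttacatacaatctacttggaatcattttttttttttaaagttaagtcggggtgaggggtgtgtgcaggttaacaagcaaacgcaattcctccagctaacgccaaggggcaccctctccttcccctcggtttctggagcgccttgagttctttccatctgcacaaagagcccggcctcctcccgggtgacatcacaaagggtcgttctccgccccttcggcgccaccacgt
The first window of Tnfrsf19, at its downstream start site, held the motif on the reverse strand, starting 202 bases before that site. The window of its other, upstream start site held none. Windows of Tnfrsf12a and Tnfrsf21 held none either, which says only that these letters are not in the bases shown. Of all 32851 promoter windows of this length, 7.48% held the motif. The first of the windows of Tnfrsf9, at chr4:150919905-150920154, also held it, starting 80 bases before the start. Motifs of NF-kappaB (GGG and TTTCC with 2 free bases between them) and AP-1 (TGAGTCA), searched on both strands, were each found in 1 member window, the other window of Tnfrsf9, starting 43 and 15 bases before the start. Across all windows 1.41% held the first and 4.46% the second. These matches describe the sequence and were not tested as binding sites.

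Tnfrsf1a and Tnfrsf1b encode the receptors of TNF itself, the first with a death domain and widely expressed, the other mostly on immune and endothelial cells. Tnfrsf1a lies at chr6:125349362-125362484 on the plus strand. It was at 51.6, 67.4 and 72.2 FPKM in control and 57.1, 55.6 and 44.8 FPKM in GOF libraries. The lowest control library fell within the GOF range. Its log2 fold change of -0.34 had a 95% interval of -0.68 to -0.0028 and did not pass the adjusted threshold (adjusted p = 0.140 from edgeR).

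Tnfrsf1b, at chr4:145213463-145246870 on the minus strand, was at 2.30, 3.52 and 4.04 FPKM in control and 1.91, 2.32 and 1.36 FPKM in GOF libraries. GOF replicate 1 was just above Control replicate 0, and the remaining libraries were split by group. The fitted log2 difference was -0.84 ± 0.25 (SE, edgeR, adjusted p = 0.0532). Without Control replicate 0 it was -1.04 (adjusted p = 0.0198) and the gene was called. Within animals 9852 and 9845 the GOF culture was at 0.590 and 0.472 times the FPKM of the control culture. With the animal as a block the log2 fold change of Tnfrsf1b was -0.92 (adjusted p = 0.0202), still under the fold threshold. TNF, the ligand of both, was close to 0: Tnf was at no more than 0.0424 FPKM in any library.

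Tnfrsf9 (4-1BB or CD137) is a co-stimulatory receptor of activated T cells, and its values were near the limit of detection. The 3 control libraries held about 2, 6 and 1 fragments (0.0270, 0.0689 and 0.0116 FPKM) and the GOF libraries 12, 6 and 5 (0.165, 0.0847 and 0.0748 FPKM). Although the FPKM ranges did not overlap, the counts did. Without the filter on low counts the log2 fold change was 1.27 ± 0.74 (SE, edgeR, adjusted p = 0.331). The gene, at chr4:150914562-150946102 on the plus strand, overlaps Camta1 on the opposite strand.

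Tnfsf10 encodes TRAIL, a ligand that can trigger apoptosis through death receptors. It had 4, 3 and 6 fragments in control and 7, 1 and 10 in GOF libraries, at most 0.0457 FPKM. The groups overlapped, and without the filter the log2 fold change was 0.40 ± 0.75 (SE, edgeR, adjusted p = 0.784). Neither Tnfrsf9 nor Tnfsf10 passed in that fit, and how large a difference could be detected at this depth was not tested. Tnfsf10 lies at chr3:27317028-27342427 on the plus strand.

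Ngfr encodes the p75 neurotrophin receptor, which has a death domain and is known from neurons, Schwann cells and neural crest derivatives. The gene lies at chr11:95568818-95587735 on the minus strand. Its FPKM was 2.95, 1.52 and 0.895 in Control replicates 0, 1 and 2 and 0.517, 0.824 and 3.59 in GOF replicates 0, 1 and 2. The highest library of each group came from animal 9852, and the cultures of animal 9845 were the lowest of each group. By edgeR the log2 difference was -0.13 with a 95% interval from -1.89 to 1.64 (adjusted p = 0.927), so that a change of several-fold in either direction lies within the interval. Within animal 9852 the GOF culture was at 1.22 times and within animal 9845 at 0.578 times the control culture. Leaving out 1 library at a time moved the log2 fold change from -1.52, without GOF replicate 2, to 0.41, without Control replicate 0, and turned its sign in 3 cases (also without GOF replicate 0 or 1).

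Of the Schwann cell and melanocyte genes reported here, only Erbb3 and Foxd3 followed the same order by animal. Erbb3, the neuregulin co-receptor, was at 0.419 and 0.467 FPKM in the cultures of animal 9852 and at 0.0710 and 0.0810 FPKM in those of animal 9845. Foxd3, a transcription factor gene of the neural crest, was at 0.40 and 0.335 FPKM in the cultures of animal 9852 and at 0.0388 and 0.0390 FPKM in those of animal 9845. The 6 Schwann cell and melanocyte markers reported here (Sox10, Foxd3, Erbb3, Dct, Tyr and Pmel) summed to 0.607 to 1.58 FPKM in control and 0.724 to 1.52 FPKM in GOF libraries. Each of the 6 was under 1 FPKM in every library, and none was at 0 in all of them. The part of these cells in the values of Ngfr was not tested.

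**Figure D2:**
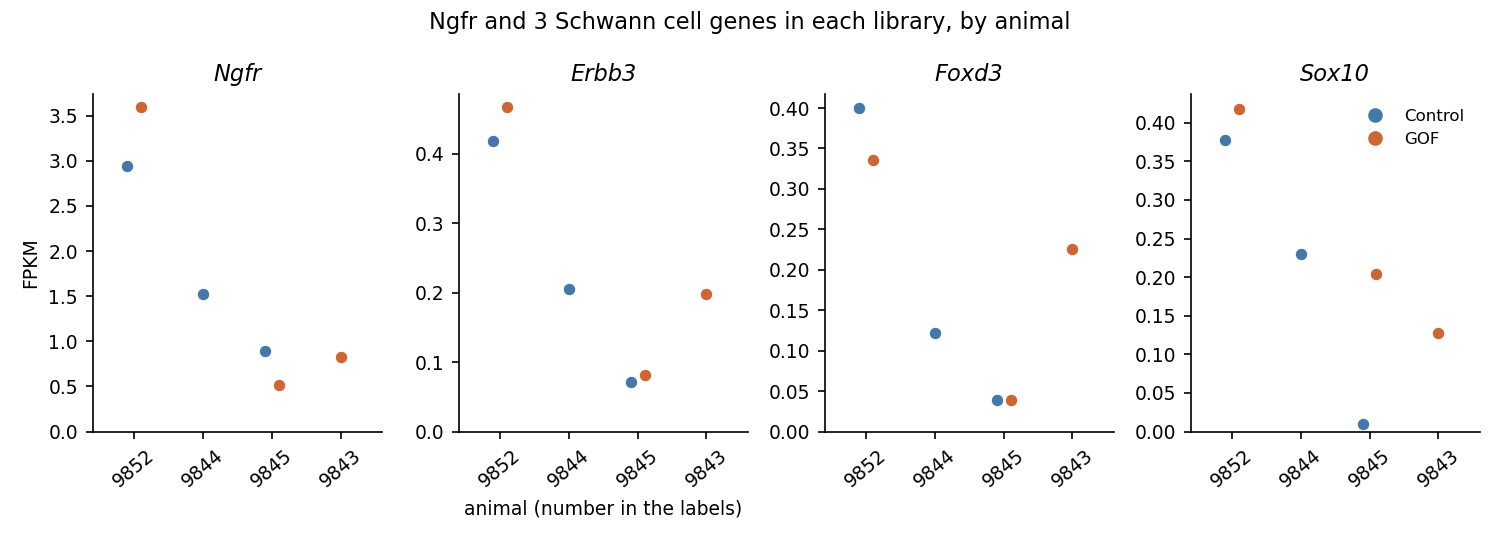
FPKM (vertical axes, linear) of Ngfr and of the Schwann cell genes Erbb3, Foxd3 and Sox10 in each of the 6 libraries, set out by the number of the animal, with control libraries in blue and GOF libraries in orange. In all 4 panels the cultures of animal 9852 are the highest of their group, whether control or GOF. The markers Dct, Tyr and Pmel, not shown, do not follow this order.

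The ligands and partners of Ngfr were described from a list of 19 genes, of which 16 were tested. Among them 3 were called higher and none lower by edgeR, which called 6.69% of all genes higher and 5.64% lower, and by DESeq2. At an unadjusted p under 0.05, 5 were higher and 3 lower. With the animal as a block 5 were called (Rtn4r higher and Sorcs2 lower in addition). The shares of all genes at that unadjusted p and with that block are not given here. Bex3, whose product binds the intracellular part of the receptor, was at 75.1 to 102 FPKM in control and 353 to 395 FPKM in GOF libraries, with a log2 fold change of 2.12 ± 0.15 (SE, edgeR, adjusted p = 2.52e-04). The neurotrophin gene Ntf3 was at 0.188 to 0.355 FPKM in control and 3.72 to 7.53 FPKM in GOF libraries, with a log2 fold change of 4.24. Bdnf was at 8.37 to 10.5 and 16.7 to 25.4 FPKM, with a log2 fold change of 1.16. For Ntf3 and Bdnf the adjusted p-values from edgeR were 3.57e-04 and 0.00195. At the adjusted p alone, which 10.2% of all genes pass as lower, 2 genes were lower, Maged1 (-0.62) and Sort1 (-0.80). Both are named after their values were seen. The median over the 16 genes was -0.07 on the log2 scale.

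All 28 receptor genes and 18 ligand genes of the family were then considered. Among the receptors 20 were tested, with a median log2 fold change of 0.72. Of these, 8 were called higher and none lower by edgeR, which called 6.69% of all genes higher and 5.64% lower, and by DESeq2. At an unadjusted p under 0.05, 10 receptors were higher and 4 lower. With the animal as a block, Fas was called higher in addition. The shares of all genes at that unadjusted p and with that block are not given here. At the adjusted p alone, which 10.2% of all genes pass as lower, 1 receptor was lower, the lymphotoxin β receptor Ltbr (log2 fold change -0.44, adjusted p = 0.0342 from edgeR). The 4 receptors called besides the members were Tnfrsf23, Tnfrsf11a, Cd40 and Tnfrsf10b, of which all but Tnfrsf23 are named after their values were seen. Tnfrsf23, known as a mouse decoy receptor for TRAIL, was at 7.02, 7.82 and 7.72 FPKM in control and 48.6, 47.8 and 34.2 FPKM in GOF libraries. Its log2 fold change was 2.46 ± 0.19 (SE, edgeR, adjusted p = 3.18e-04). Tnfrsf22 and Tnfrsf26 are related genes beside Tnfrsf23 on chromosome 7, and all of these overlap an antisense gene. Their sequences were not compared here, and how the counting divided reads among them is uncertain. Fitted log2 differences were 0.69 for Tnfrsf22 and 0.62 for Tnfrsf26, and neither was called.

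**Figure D3:**
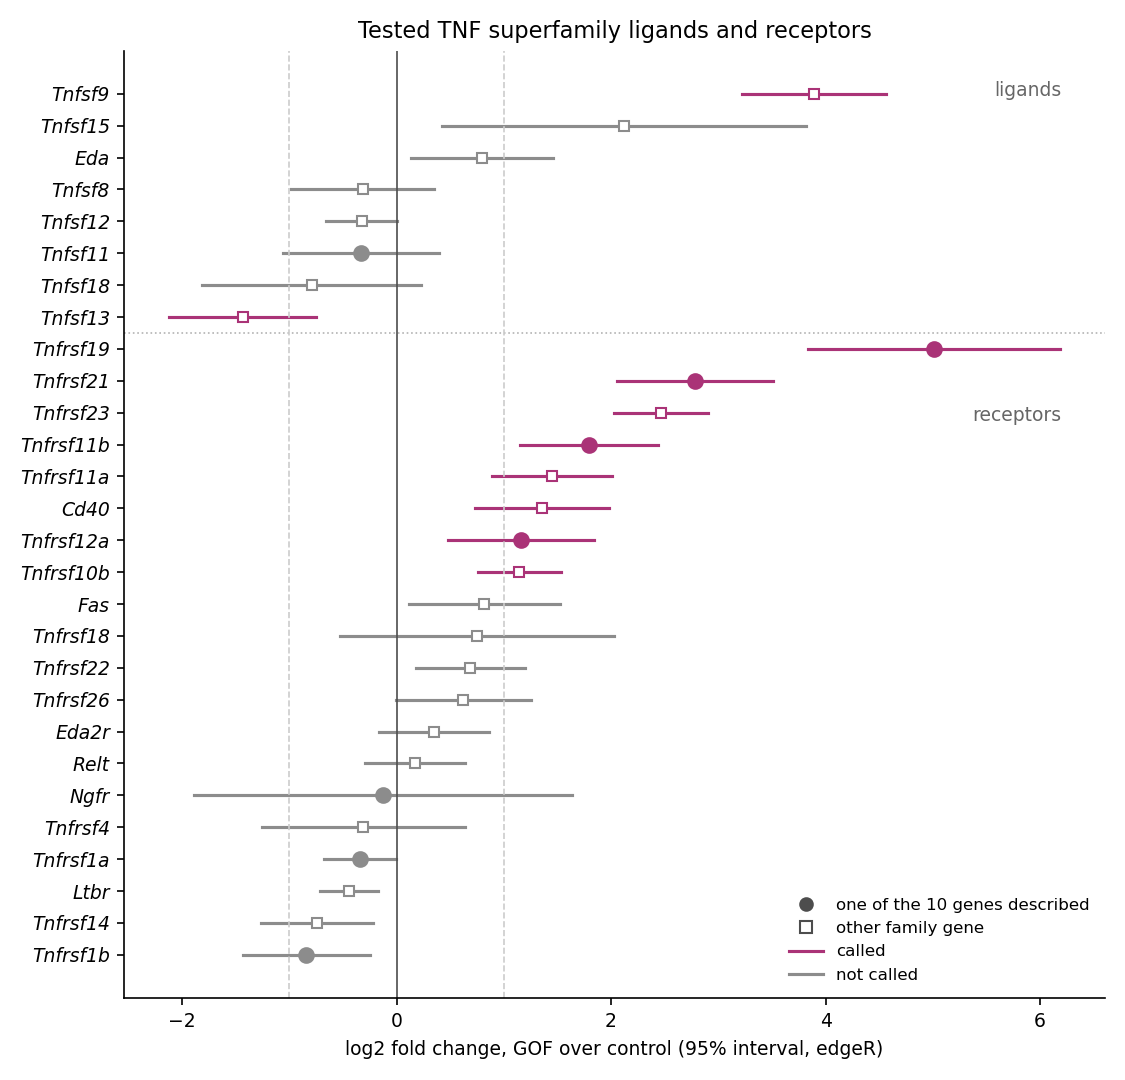
Fitted log2 fold change of GOF over control (horizontal axis, with 95% interval from edgeR) of the 28 tested ligands and receptors of the family, with called genes in purple and others in grey. Of the receptors, 8 lie to the right past the dashed line at a fold change of 2 and are called, and none is called to the left.

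Of the ligands, 8 were tested. Tnfsf9 (4-1BB ligand) was called higher and Tnfsf13 (APRIL, a B cell survival factor) lower, and the median over the 8 was -0.32. Over all genes tested, 6.69% were called higher and 5.64% lower. Tnfsf9 was at 1.01, 1.27 and 1.12 FPKM in control and 20.3, 20.8 and 10.8 FPKM in GOF libraries. It thus went from near the level of Tnfsf11 to the highest mean of any ligand gene in GOF libraries, although Tnfsf15 was above it in GOF replicate 2 (log2 fold change 3.89 ± 0.29, SE, edgeR, adjusted p = 2.95e-04). Tnfsf13 was at 1.38, 1.06 and 1.49 FPKM and at 0.588, 0.373 and 0.497 FPKM (log2 fold change -1.44, adjusted p = 0.0132), and its call was lost without Control replicate 2. It shares its locus with Tnfsf12 through the read-through gene Tnfsfm13, so that the division of reads is uncertain. With the animal as a block, 4 ligands were called (Eda and Tnfsf15 higher in addition). The share of all genes called with that block is not given here. Tnfsf15 was at 0.856 to 2.08 FPKM in control libraries and at 2.96, 1.57 and 13.6 FPKM in GOF replicates 0, 1 and 2, and its log2 fold change of 2.12 did not pass (adjusted p = 0.0782). It was also called with no filter on low counts and when GOF replicate 1 was left out. A further 10 ligand genes were not tested, among them Tnf, Lta, Ltb and Fasl, each under 0.15 FPKM in every library.

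Ligands and the receptors that bind them were set side by side on the FPKM scale, with values seen before the pairs were chosen. Tnfsf12 (TWEAK), the ligand of Tnfrsf12a, was at 7.67, 7.07 and 7.75 FPKM in control and 6.36, 7.01 and 5.87 FPKM in GOF libraries. Its log2 fold change was -0.33 ± 0.14 (SE, edgeR, adjusted p = 0.152), beside 1.16 for its receptor. Tnfrsf11a (RANK), the signalling receptor of Tnfsf11, was at 0.513 to 0.635 FPKM in control and 1.29 to 1.86 FPKM in GOF libraries (log2 fold change 1.45, adjusted p = 0.00596). Tnfrsf11b was at least an order of magnitude above both Tnfsf11 and Tnfrsf11a in every library. Tnfrsf10b, the mouse death receptor for TRAIL, was at 7.12 to 10.0 FPKM in control and 18.2 to 22.3 FPKM in GOF libraries (log2 fold change 1.15, adjusted p = 0.00341), while its ligand Tnfsf10 stayed under 0.05 FPKM. For Tnfsf9 and Tnfrsf9 the ligand was the higher of the pair in every library.

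**Figure D4:**
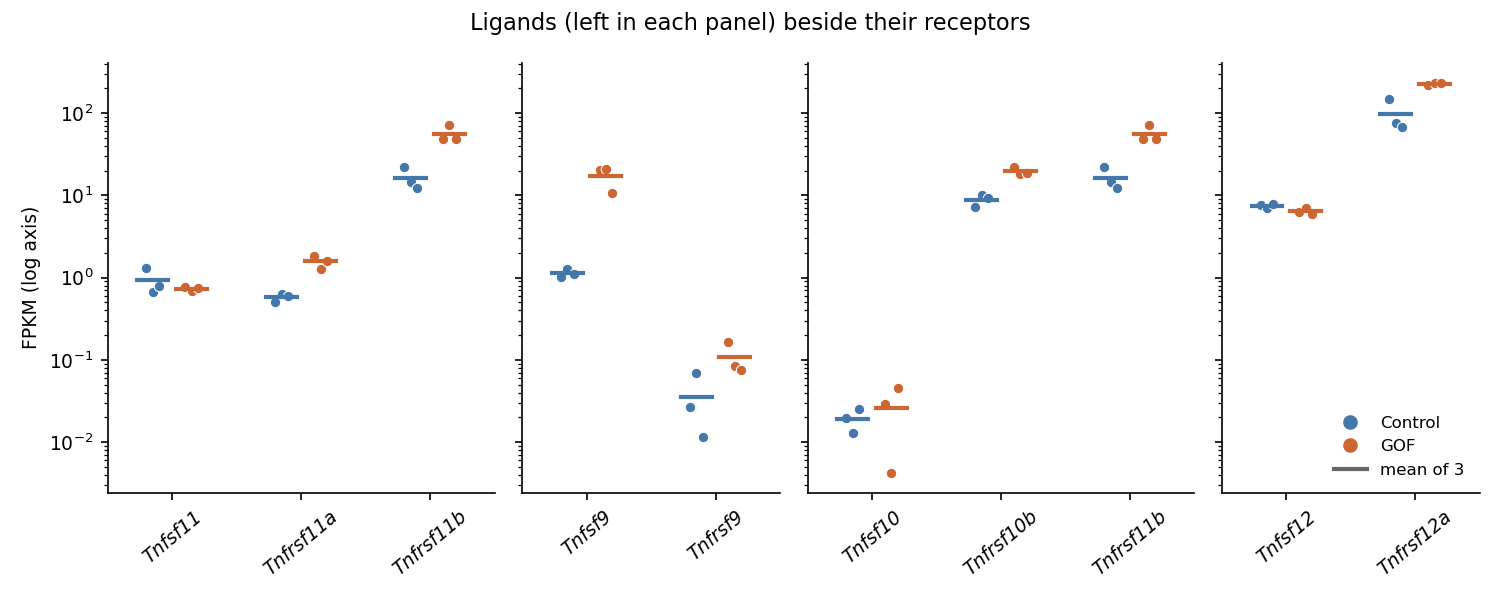
FPKM (log axis) of ligand genes, at the left of each panel, and of their receptors in the 3 control (blue) and 3 GOF (orange) libraries, with a line at the mean of 3. GOF points lie above control points for the receptors Tnfrsf11a, Tnfrsf11b, Tnfrsf10b and Tnfrsf12a and for the ligand Tnfsf9, while those of Tnfsf11 and Tnfsf10 overlap and those of Tnfsf12 lie lower.

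Summed over the 28 receptor genes, FPKM was 336 ± 45.5 in control and 577 ± 24.7 in GOF libraries (SD, n = 3 each), a ratio of 1.72. The sum was 303 to 388 FPKM in control and 556 to 604 FPKM in GOF libraries (two-sided p = 0.1, exact permutation test). Tnfrsf12a made up 38.1%, 24.2% and 22.6% of the sum in Control replicates 0, 1 and 2 and 38.9%, 40.2% and 38.9% in GOF replicates 0, 1 and 2. Control replicate 0 was thus close to the GOF libraries in this share. Tnfrsf1a made up 19.5% ± 5.49 in control and 9.14% ± 1.52 in GOF libraries, and Tnfrsf11b 4.77% ± 0.802 and 9.73% ± 2.42 (SD, n = 3 each). The ratio of Tnfrsf12a to Tnfrsf1a was 2.86, 1.14 and 0.949 in control and 3.79, 4.12 and 5.24 in GOF libraries. A share moves with every gene in the sum, so a fall in share does not show that the gene itself fell.

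**Figure D5:**
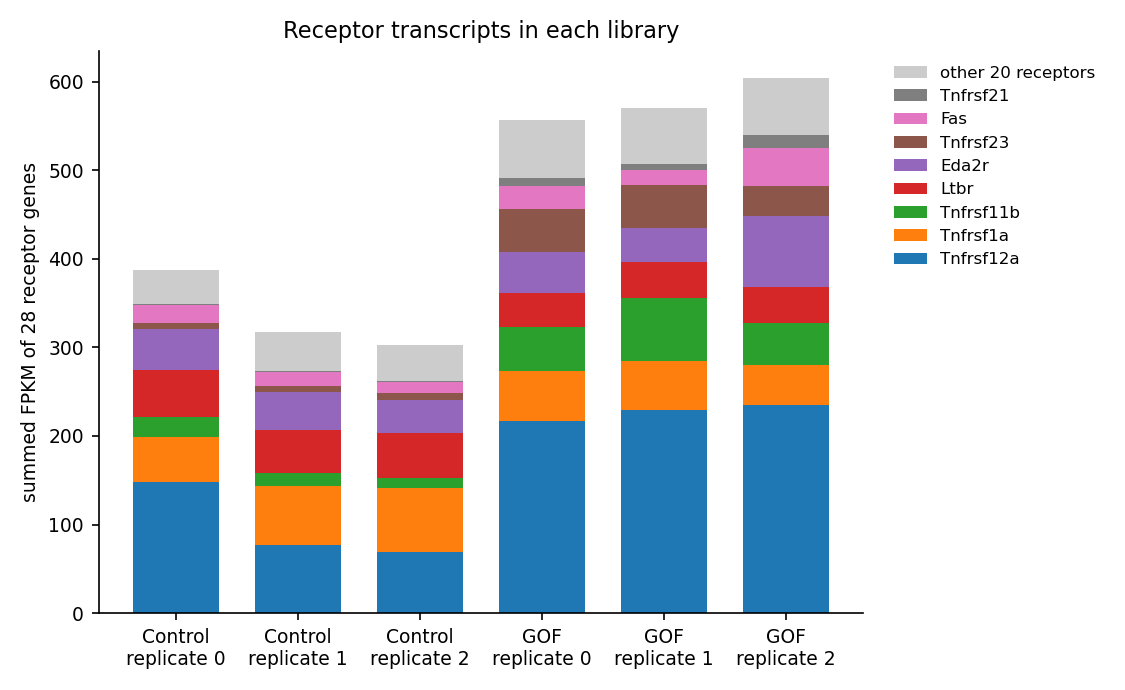
Summed FPKM of the 28 receptor genes (vertical axis, linear from 0) in each library, stacked by gene, with Tnfrsf12a, Tnfrsf1a, Tnfrsf11b, Ltbr, Eda2r, Tnfrsf23, Fas and Tnfrsf21 in colour and the other 20 in light grey. The bars of the 3 GOF libraries reach 556 to 604 FPKM and those of the control libraries 303 to 388 FPKM, with Tnfrsf12a at the base of each bar.

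Downstream of the receptors, 24 genes for adaptors and death effectors were listed and 23 tested. Only Edaradd, the adaptor of the ectodysplasin receptor, was called, beside 12.3% of all genes tested. Edaradd was under 0.09 FPKM in every library. Its call was lost with the label number or the animal as a fixed block, with either limma fit and without any of Control replicates 0 and 1 or GOF replicates 0 and 1. Ripk3, a kinase of necroptosis, was at 29.8 to 41.7 FPKM in control and 54.6 to 61.1 FPKM in GOF libraries (log2 fold change 0.74, adjusted p = 0.0153 from edgeR), below the fold threshold. Cflar, an inhibitor of caspase-8 activation, was at 43.6 to 48.2 and 54.8 to 75.6 FPKM (log2 fold change 0.59, adjusted p = 0.0104), also below it. At the adjusted p alone, 3 genes of the list were higher and 1 lower (Birc2, -0.43, named after its values were seen). Over all genes tested, 11.1% pass as higher and 10.2% as lower. The median over the 23 genes was -0.05 on the log2 scale.

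All 24 listed genes for NF-kappaB subunits, kinases and inhibitors were tested, and 1 was called, beside 12.3% of all genes tested. Tnfaip3 (A20), an enzyme that restrains NF-kappaB signalling, was at 0.932, 0.595 and 0.767 FPKM in control and 3.18, 2.02 and 3.83 FPKM in GOF libraries (log2 fold change 1.87 ± 0.23, SE, edgeR, adjusted p = 0.00196). The kinase genes Chuk and Map3k7 differed by 0.57 and 0.34 on the log2 scale (adjusted p = 0.00842 and 0.0477), below the fold threshold. At the adjusted p alone, 4 genes of the list were higher and 2 lower. Over all genes tested, 11.1% pass as higher and 10.2% as lower. Besides the genes above, Cyld was higher (log2 fold change 0.81, adjusted p = 0.00949 from edgeR). The lower genes were the subunit gene Nfkb1 (-0.50) and the kinase gene Map3k14 (-0.55). Cyld, Nfkb1 and Map3k14 are named after their values were seen. The list's median was 0.07. Without Control replicate 0, Nfkbiz was also called, lower in GOF cultures.

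Among 28 genes known to rise after TNF, 25 were tested, 4 were called higher and 3 lower, with a median of 0.12. Over all genes tested, 6.69% were called higher and 5.64% lower. Tnfaip3 is among the 4 and is thus counted in this list and in the NF-kappaB list, which share further genes. With the animal as a block 10 were called, 5 in each direction (Icam1 higher, and Ccl7 and Tnfaip6 lower in addition), and DESeq2 also called 10. The shares of all genes called under these settings are not given here, so the larger counts have no background beside them. Ptgs2 (cyclooxygenase 2) was at 24.2 to 36.3 FPKM in control and 261 to 334 FPKM in GOF libraries (log2 fold change 3.40 ± 0.25, SE, edgeR, adjusted p = 2.76e-04). Cxcl5, a chemokine for neutrophils, was at 12.1 to 22.4 FPKM in control and 1.31 to 2.60 FPKM in GOF libraries (log2 fold change -3.11 ± 0.31, SE, edgeR, adjusted p = 8.61e-04). Lif and Ier3 were also called higher, and the chemokines Cxcl1 and Ccl2 lower, named after their values were seen. Control replicate 0 was the highest library for Ccl2, at 214 FPKM beside 78.7 and 55.9 FPKM in the other control libraries, and Ccl2 stayed called only when the library left out was Control replicate 2. Cxcl1 lost its call without GOF replicate 0 or 1, and Ier3 without Control replicate 2 or GOF replicate 2. The list therefore held members called in each direction.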

How the data were processed

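Libraries were prepared by the authors with a stranded kit and sequenced as paired ends. The authors mapped reads with TopHat (genome mm10) and quantified them with Cuffdiff, whose versions and the use of strand in counting are not given in the sources used here. The deposited estimated counts are unscaled fragments per gene and library, from the authors' run of Cuffdiff. The deposited FPKM values are those fragments scaled by the authors for transcript length and between libraries. The authors' columns of internally and externally scaled fragments (2 columns) and the lncRNA table, which holds no gene of the lists used here, were not used.

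GENCODE M21 (GRCm38) gave the gene symbols (97.9% of 41126 genes). Estimated counts, of which 4.95% were not whole, were rounded. A further 32 genes with a failed estimate were left out, and 15462 genes passed filterByExpr. The quasi-likelihood test of edgeR 4.0.16 in R 4.3.3 (TMM, no covariate, Benjamini-Hochberg adjustment over all genes tested) was fitted to the 3 control and 3 GOF libraries, and genes were called at a fold change over 2 if the adjusted p was under 0.05. Fold changes of FPKM are ratios of means and do not equal the fitted ones. Single values were compared with the exact two-sided permutation test, which cannot go below p = 0.1 with 3 against 3. Libraries held 35980831 to 42834467 fragments, and intervals are at 95%. The edgeR test gives no standard error. Those printed with it are the absolute log2 fold change divided by the square root of its F statistic. The intervals were built from these standard errors with a t quantile.

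Alternatives were DESeq2 1.42.0, upper-quartile normalization, library totals, all genes without a filter, FPKM of at least 1 in 3 libraries, limma 3.58.1 on log2(FPKM + 1) and log2(FPKM + 0.1), blocks for the animal and for the label number, and leaving out each library. The animal as a random block (voom) was added after the data were seen. Deviations from group means correlated at 0.408 and 0.460 between cultures of one animal, as named in the labels. Between cultures sharing a label number the values were -0.410, 0.0539 and -0.441. Deviations sum to 0 within a group, so these correlations depend on one another and the negative ones are not separate evidence. The pairing by animal is that of the labels. The block by animal leaves 1 residual degree of freedom, and without it the cultures of a shared animal are taken as independent.

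The script was checked on simulated data. Members and gene lists were chosen with earlier results of these data known. Named genes are every member, up to 3 genes of each other list (those called with the smallest adjusted p, then those of highest mean FPKM), Axin2 and Ctnnb1, and others are said to be chosen later. Some genes of the lists are not reported here. Data were handled with data.table (version 1.17.8), pandas 2.3.3 and Python 3.11.15, and plots drawn with matplotlib 3.10.9.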

Additional observations from a re-analysis of the deposited data

How the results depend on the processing

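The members called numbered 4 in 9 of the 10 alternatives that keep every library and 3 with FPKM of at least 1 in 3 libraries, where Tnfrsf19 was not tested. They numbered 3 to 5 with 1 library left out. Receptors called ranged from 7 to 9 over the same settings. With limma on log2(FPKM + 1), a scale that understates changes of low genes, 877 of all genes were called in place of 1906, and 1 ligand in place of 2. With the animal as a replicate block, 4 ligands, 0 adaptors and death effectors (1 otherwise) and 5 neurotrophin genes (3 otherwise) were called, as were 10 TNF-induced genes (7 otherwise, and 10 with DESeq2), and this block changed no call of a member. How many of all genes this block or DESeq2 called is not given here, so these counts cannot be set beside a background. The block by label number, in which cultures share only a number, gave 2 ligands and 0 adaptors and death effectors. The latter list also gave 0 with FPKM of at least 1 in 3 libraries and with limma at either pseudocount, where Edaradd, under 0.09 FPKM throughout, was dropped by the filter or not called. The cause of the other changes was not tested.

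With 1 library left out at a time, 1311 to 1961 genes were called in all, 1 to 3 ligands, 0 to 1 adaptors and death effectors, 1 to 2 NF-kappaB genes, 5 to 7 TNF-induced genes and 3 to 4 neurotrophin genes. The fourth was Sorcs2 (lower) without Control replicate 0 and Rtn4r (higher) without replicate 1 of GOF. Fitted log2 differences ranged from -0.54 to 0.03 for Tnfsf11 (0.025 without Control replicate 0) and from -1.52 to 0.41 for Ngfr, so both turned sign. Over all settings in which they were tested, Tnfrsf11b (1.52 to 2.06), Tnfrsf19 (1.20 to 5.59) and Tnfrsf21 (2.14 to 3.06) kept their direction and their call. Depth limits Tnfrsf9 and Tnfsf10, with 1 to 12 fragments in a library, and the control values of Tnfrsf19, with 4 to 15.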
